A study of Mus musculus with 6 samples.

Results

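Gja1, Gjb2, Gjb5 and Gjb6 are 4 genes for connexins, the proteins that form gap junctions, and were followed in keratinocytes from the epidermis of the mouse tail. They were taken by gene symbol from a deposited table of 19618 genes, and all 4 were present and abundant enough to be tested. Messenger RNA was measured by sequencing in 3 libraries from Gpr161 epidermal knockout mice and 3 from control mice, all aged 4 months. The labels give the knockout mice as K14cre+ and homozygous for the floxed Gpr161 allele; the transgene expresses Cre recombinase from a keratin 14 promoter. No control is labelled as carrying K14cre: 1 control, titled 1, is given as flox homozygous, and the others as flox heterozygous. Loss of Gpr161, the presence of Cre and the number of floxed alleles therefore cannot be told apart in full. Gpr161 encodes a ciliary receptor known to restrain Hedgehog signalling, and the study asks how keratinocyte expression differs without it. The table's columns name a genotype and a tag but no sample title, so libraries are called by tag. Knockout libraries are DE679, DE685, DE688, and control libraries are DE680, DE684, DE689; which control tag is the flox homozygote is not known here. Whether the samples came from separate mice is not stated beyond the titles, so p-values measure the spread between these libraries.

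Connexins assemble into hemichannels in the plasma membrane, and hemichannels of neighbouring cells dock to form gap junctions, which pass ions and small molecules from cell to cell. Keratinocytes express several connexins at once, in patterns that change between the basal layer, the upper layers and the hair follicle. Gja1 encodes Cx43, the best-studied and most widespread epidermal connexin; Gjb2 encodes Cx26, and Gjb6 encodes Cx30, both of which are known to be induced in wounded or hyperproliferative skin. Mutations of human GJB2 and GJB6 cause deafness and inherited skin disorders. Gjb5 encodes Cx31.1, a connexin of stratified epithelia that is known for poor channel formation on its own.

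The family shares a docking loop whose cysteines fix its fold, and the same stretch is shown for the 4 members because it lets a reader see how alike and how separable their transcripts are. It was read from GENCODE M21 transcripts (GRCm38), 5′ to 3′, with the codons of the 3 cysteines of the first extracellular loop in capitals. It spans codons 54 to 65 in Gja1 and codons 53 to 64 in the others.
Gja1 loop: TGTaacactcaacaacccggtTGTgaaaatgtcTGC
Gjb2 loop: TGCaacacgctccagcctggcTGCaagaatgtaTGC
Gjb5 loop: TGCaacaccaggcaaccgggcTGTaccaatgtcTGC
Gjb6 loop: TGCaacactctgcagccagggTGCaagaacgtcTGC
All 4 members carried cysteine codons separated by 6 and then 3 residues. Gjb2 and Gjb6 were the closest pair, with 30 of these 36 bases equal, against 25 or 26 for every other pair. Over the whole coding sequence, Gjb2 and Gjb6 were identical at 75.7% of 678 aligned bases, and the other pairs at 59.4% to 64.2%. The longest stretch shared exactly by any pair of member transcripts was 20 bases, and no 50-base word of a member's transcript occurred in a transcript of another gene.

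Gja1 lies on chromosome 10 (56377330 to 56402513, plus strand, GRCm38). Gjb2 (57098600 to 57104702) and Gjb6 (57123303 to 57133611) lie close together on the minus strand of chromosome 14. Gjb5 (127354809 to 127358181) lies on the minus strand of chromosome 4. All 4 were matched in RefSeq's promoter table (GRCm38.p6). The 250 bases before RefSeq's start of transcription are shown for Gja1, Gjb2 and Gjb6. Gja1 and Gjb2 are the members whose libraries separated by genotype, and Gjb6 lies near Gjb2 and did not separate. Capitals mark AP-1 letters (TGAGTCA or its reverse complement TGACTCA) and GC boxes (GGGCGG or its reverse complement CCGCCC).
Gja1 promoter, chr10:56377050-56377299, plus strand: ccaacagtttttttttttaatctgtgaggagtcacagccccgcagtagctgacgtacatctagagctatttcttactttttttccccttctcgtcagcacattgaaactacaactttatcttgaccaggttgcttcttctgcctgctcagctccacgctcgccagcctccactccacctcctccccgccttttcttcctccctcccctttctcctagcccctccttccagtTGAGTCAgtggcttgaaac
Gjb2 promoter, chr14:57104703-57104952, minus strand: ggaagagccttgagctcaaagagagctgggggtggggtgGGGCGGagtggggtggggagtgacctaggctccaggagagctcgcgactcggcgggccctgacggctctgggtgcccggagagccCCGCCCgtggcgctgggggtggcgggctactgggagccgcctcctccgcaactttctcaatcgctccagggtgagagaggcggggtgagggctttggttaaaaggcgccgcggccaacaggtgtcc
Gjb6 promoter, chr14:57133612-57133861, minus strand: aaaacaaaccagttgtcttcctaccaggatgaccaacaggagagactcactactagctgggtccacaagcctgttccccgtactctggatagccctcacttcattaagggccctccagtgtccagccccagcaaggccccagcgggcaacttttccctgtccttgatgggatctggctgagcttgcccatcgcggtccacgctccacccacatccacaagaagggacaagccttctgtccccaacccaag
In the Gja1 window the AP-1 letters stood 19 to 13 bases before RefSeq's start, which lies upstream of the gene start at 56377330 given above. Of 32851 promoter windows of this length, 4.46% held them on either strand. The Gjb2 window held 2 GC boxes, 211 to 206 and 126 to 121 bases before the start, as did 32.7% of windows at least once. Its GC content was 69.2%, against 56.8% for Gjb6, 54.4% for Gjb5 and a median of 52.4% over all windows. The Gja1 window lay below that median. Gja1 and Gjb2, which separated by genotype, thus had the lowest and the highest GC content of the 4 members. A Gli site (TGGGTGGTC or its reverse complement GACCACCCA, in 0.225% of windows) and a TATA box (TATAAA or its reverse complement TTTATA, in 12.4% of windows) matched in none of the 3 printed windows. The Gjb5 window is not printed and held 1 match, a TATA box 243 to 238 bases before its start. Such matches describe letters in a short window only.

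The libraries held 17157864 to 25344399 estimated counts, and levels are given as CPM (depth-scaled counts, with TMM factors between libraries). The deleted gene itself did not check the labels: Gpr161 stood at 26.8, 33.6 and 25.9 CPM (DE679, DE685, DE688) under the knockout label and at 30.2, 32.2 and 31.9 CPM (DE680, DE684, DE689) under the control label. Whether its deleted exons were missing was not analysed here, so every direction below compares libraries by their genotype label alone. The keratinocyte label fits its markers, with Krt14 at 8847 to 11470 CPM. DE685 in the knockout and DE684 in the control carried Y-linked transcripts (3311 and 5291 counts); the other 4 libraries had at most 3 Y-linked counts. Of 15422 genes tested, 1.6% were called by edgeR's quasi-likelihood test (Benjamini-Hochberg adjusted p below 0.05), 1.24% higher and 0.357% lower in the knockout, and 19% had an unadjusted p under 0.05. The median log2 change over all of them was −0.0036.

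Gja1 and Gjb2 had lower levels in every knockout library than in any control library, whereas Gjb5 and Gjb6 overlapped between the genotypes. Of the 4, 0 were called by edgeR, against 1.6% of all genes (1.24% higher, 0.357% lower), and Gja1 came closest. At an unadjusted p under 0.05 there were 2 of the 4, Gja1 and Gjb2, against 19% of all genes; DESeq2 called 1, Gja1. Their separation is read against a background in which the ranges of the groups did not overlap for 25.6% of the genes tested, 12.8% with the knockout lower. In bulk RNA, fewer cells of a type and less RNA per cell cannot be told apart.

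Knockout libraries held Gja1 at 493 CPM (DE679), 434 CPM (DE685) and 497 CPM (DE688), and control libraries at 582 CPM (DE680), 646 CPM (DE684) and 639 CPM (DE689). The knockout libraries lay close together and below all controls, with a gap between the highest knockout and the lowest control library. Mean levels were 475 ± 35.5 CPM for knockout and 622 ± 35.4 CPM for control (SD, n = 3 each). On the log2 scale the knockout differed by −0.39 (SE 0.08, 95% interval −0.57 to −0.21), so the knockout level was 0.763 times the control level. Its edgeR adjusted p was 0.0568, rank 280 by p of 15422 genes, just short of the threshold. The call depended on the method. Gja1 passed with the DESeq2 Wald test (adjusted p 0.000167; 5.7% of genes called), limma-voom (0.0491; 1.58%), limma fitted to the values normalized by the authors (0.0481; 1.65%) and edgeR with sex as a covariate (0.0412; 2.65%). In the 4 libraries with at most 3 Y-linked counts it was −0.30 and did not pass in edgeR (adjusted p 0.167; 0.557% of genes called). Over all 15 alternatives its change stayed between −0.44 and −0.30, with adjusted p from 0.000167 to 0.168.

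Gjb2 levels of the knockout were 194 (DE679), 164 (DE685) and 204 CPM (DE688), and those of the control 223 (DE680), 216 (DE684) and 261 CPM (DE689). The groups did not overlap, but the highest knockout library and the lowest control library were near each other. In both genotypes the library with Y-linked transcripts was the lowest. The means were 187 ± 20.6 and 233 ± 24.0 CPM (SD, n = 3 each), knockout first. Their difference on the log2 scale was −0.32 (SE 0.10, 95% interval −0.56 to −0.08, edgeR adjusted p 0.165). No alternative brought Gjb2 past the threshold, the nearest being DESeq2 with an adjusted p of 0.0541, and its change ranged from −0.38 to −0.23.

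**Figure D1:**
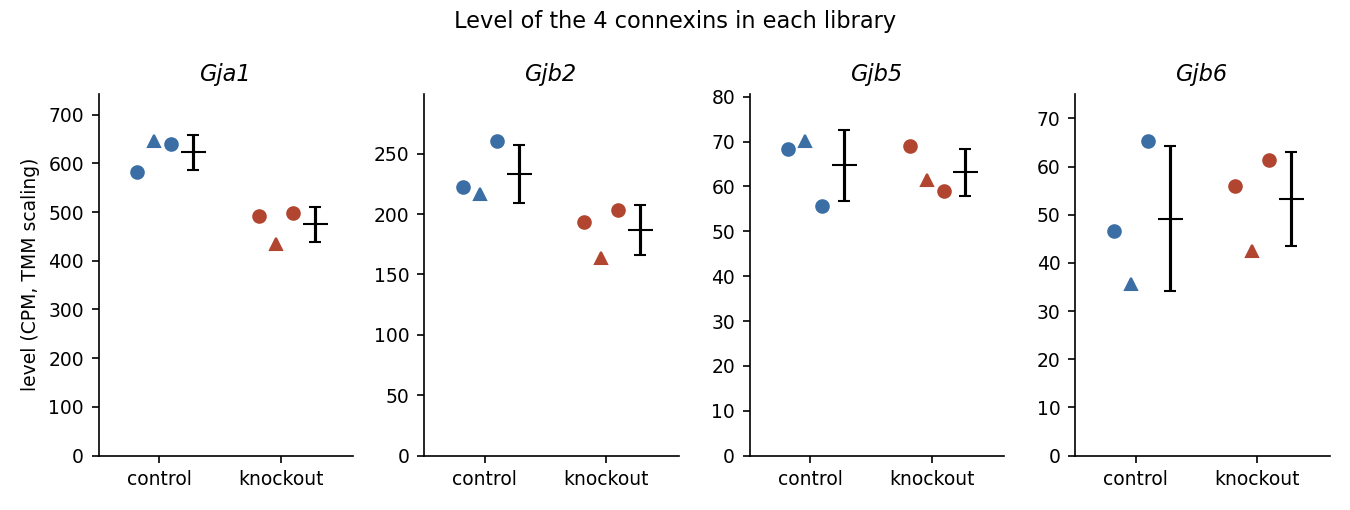
Level of each of the 4 connexin genes (vertical axis, CPM with TMM scaling, from 0) in the 3 control and 3 knockout libraries; triangles are the 2 libraries with Y-linked transcripts, and the bar beside each group is the mean ± SD. Gja1 and Gjb2 points of the knockout lie below all control points, while those of Gjb5 and Gjb6 overlap.

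Gjb5 had the smallest range over the 6 libraries. Its knockout levels were 69.1 (DE679), 61.4 (DE685) and 59.0 CPM (DE688), beside control levels of 68.4 (DE680), 70.2 (DE684) and 55.7 CPM (DE689). Both the highest and the lowest of the 6 values were controls, with the highest 1.26 times the lowest. The means of 63.2 ± 5.26 and 64.8 ± 7.91 CPM (SD, n = 3 each) correspond to −0.04 on the log2 scale (SE 0.10, adjusted p 0.884 from edgeR). The 95% interval, −0.28 to 0.20, leaves room for a difference between −17.4% and 15.2%. The sign was positive when any one of DE688, DE680 or DE684 was left out, so no direction was assigned.

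Gjb6 varied most within genotypes. Among knockouts it stood at 55.9 (DE679), 42.5 (DE685) and 61.4 CPM (DE688), and among controls at 46.7 (DE680), 35.5 (DE684) and 65.4 CPM (DE689). Controls held both the lowest and the highest level, 1.84-fold apart, and the library with Y-linked transcripts was again the lowest of each genotype. The means were 53.2 ± 9.74 and 49.2 ± 15.1 CPM (SD, n = 3 each), a log2 change of 0.11 (SE 0.22, 95% interval −0.40 to 0.63, edgeR adjusted p 0.817). Without DE684 alone the change was −0.07, and without DE688 alone it was −0.00074. Gjb6 therefore had no direction at this spread, although it is the nearest relative of Gjb2 in sequence and lies near it on the chromosome, with Gm4491 between them.

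A ratio of members within a library does not depend on how libraries are scaled, so the 6 pairs of members were compared as log2 ratios of their counts. With 3 libraries against 3, the smallest p of the exact permutation test (two-sided) is 0.1, so none of these differences can pass a threshold of 0.05. The ratio of Gjb2 to Gjb6 came to 1.79 (DE679), 1.95 (DE685) and 1.73 (DE688) for knockouts and to 2.25 (DE680), 2.61 (DE684) and 2.00 (DE689) for controls. All knockout ratios were below all control ratios, with a mean difference of −0.46 (exact permutation p = 0.1, adjusted 0.3 over the 6 pairs). Gja1 relative to Gjb5 separated in the same way, with means of 2.91 ± 0.143 in the knockout and 3.27 ± 0.224 in the control (SD, n = 3 each; exact permutation p = 0.1, adjusted 0.3). For Gja1 relative to Gjb5, the highest knockout ratio (3.08, DE688) nearly touched the lowest control ratio (3.09, DE680). How often ratios of other gene pairs separate was not analysed. The remaining pairs overlapped. Gja1 relative to Gjb2 differed least, by −0.07 (exact permutation p = 0.6, adjusted 0.7), and the sign of that difference turned to 0.0069 without DE684. Across the 6 libraries Gja1 and Gjb2 had a Pearson correlation of 0.89 on the log2(CPM + 1) scale, and Gjb5 and Gjb6 one of −0.66; these are descriptions over libraries that differ in genotype.

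**Figure D2:**
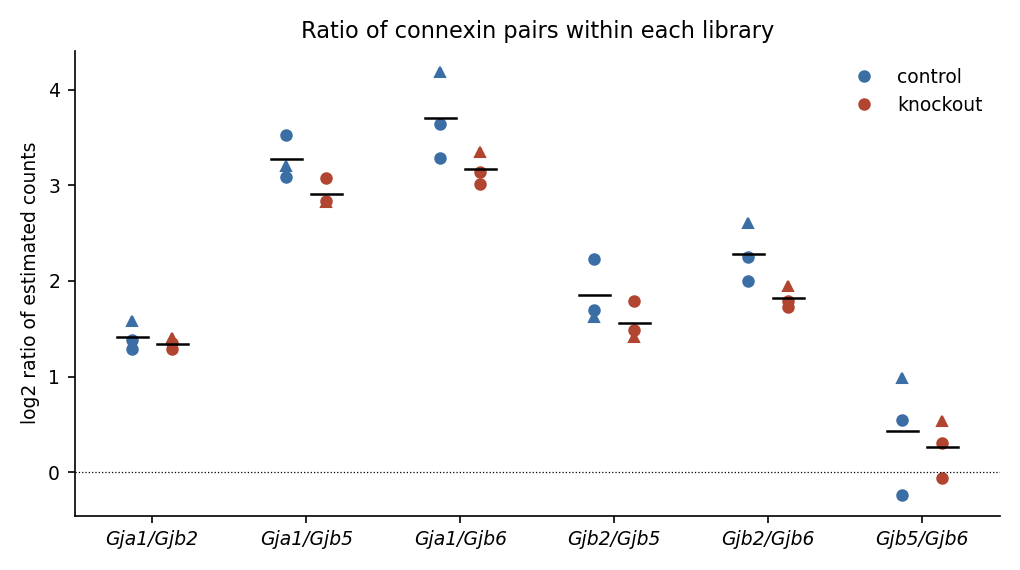
Log2 ratio of the estimated counts of 2 connexins within a library (vertical axis) for each of the 6 pairs, with control in blue, knockout in red, group means as bars and triangles for the libraries with Y-linked transcripts. The Gja1/Gjb5 and Gjb2/Gjb6 ratios of the knockout lie below those of the control, and the other 4 pairs overlap.

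Per kilobase of transcript, which allows genes to be set beside each other, Gja1 was the most abundant of the 4 members. Its level was 149 ± 11.2 CPM per kb in the knockout and 196 ± 11.1 in the control (SD, n = 3 each). Gjb2 followed with 77.7 ± 8.58 and 96.9 ± 9.99 CPM per kb, knockout first, and Gjb5 with 36.7 ± 3.06 and 37.6 ± 4.59. Gjb6 was the lowest, with 25.3 ± 4.62 CPM per kb in the knockout and 23.4 ± 7.16 in the control. At the transcript lengths used, this order held in all 6 libraries, since no range of a member overlapped that of the next. The lowest Gja1 library (136) lay above the highest Gjb2 library (108), and the lowest Gjb2 library (68.1) above the highest Gjb5 library (40.8). The narrowest gap was between the lowest Gjb5 library (32.4) and the highest Gjb6 library (31.1). The order of Gjb5 and Gjb6 depends on the lengths used, 1721 and 2105 bases. As CPM, Gjb6 was above Gjb5 in DE688 (61.4 against 59.0) and in DE689 (65.4 against 55.7).

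**Figure D3:**
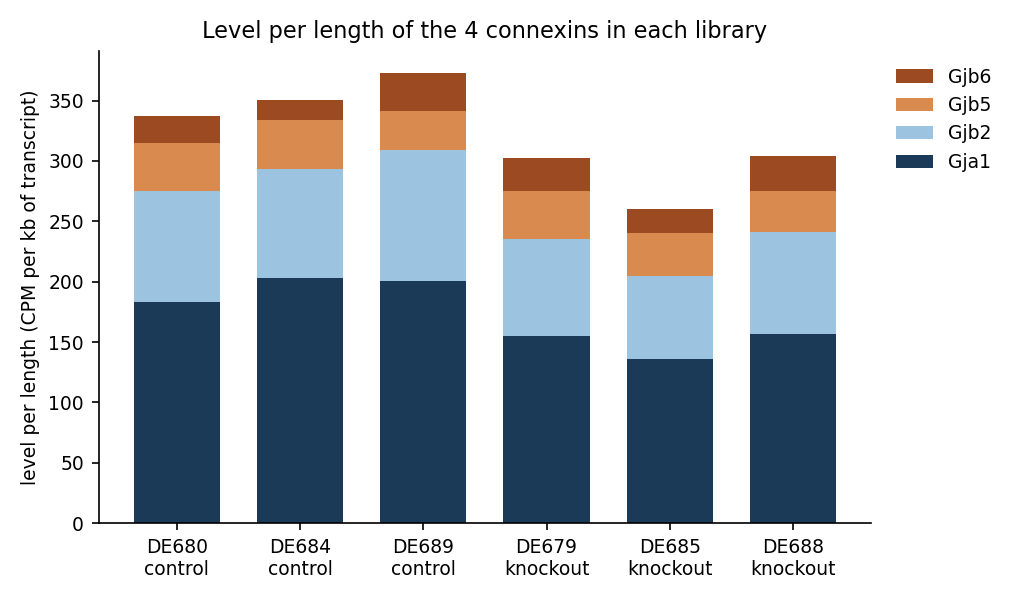
Stacked bars of the level per length (vertical axis, CPM per kb of transcript) of the 4 members in each library, controls on the left and knockouts on the right, coloured by gene. The Gja1 segment spans 183 to 203 in the control bars and 136 to 156 in the knockout bars.

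Among the 20 genes listed for the connexin family, 13 were found in the table and 10 passed the filter on low counts; the other 7 were not analysed here. None of the 10 passed in edgeR, 2 had an unadjusted p under 0.05 (Gja1 and Gjb2), and DESeq2 called 1, Gja1. Over all genes tested, 19% had such an unadjusted p and DESeq2 called 5.7%, so these counts of 10 lie near the background. Of the 10, 7 had a negative change, and their median was −0.23.

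Several connexins were scarce. Gja3 had 3.93 to 10.2 CPM and Gja4, known from blood vessels, 0.809 to 2.09 CPM, with log2 changes of −0.39 and −0.35 (edgeR adjusted p 0.501 and 0.609). Gjd3 had 1.14 to 1.95 CPM and a change of −0.43 (edgeR adjusted p 0.438), and Gjc1 0.0848 to 1.32 CPM and a change of 0.061 with a 95% interval from −1.85 to 1.97. Gjb1 and Gjc3 stayed under the filter, with at most 7 counts in a library. Pannexins form channels in single membranes and share little sequence with connexins. Of the 2 tested, Panx3 had 118 ± 20.7 and 116 ± 13.9 CPM and Panx1 30.3 ± 3.55 and 30.1 ± 3.39 CPM (SD, n = 3 each, knockout first). Their log2 changes were 0.015 and 0.0056 (edgeR adjusted p 0.963 and 0.985), and 0 had an unadjusted p under 0.05.

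**Figure D4:**
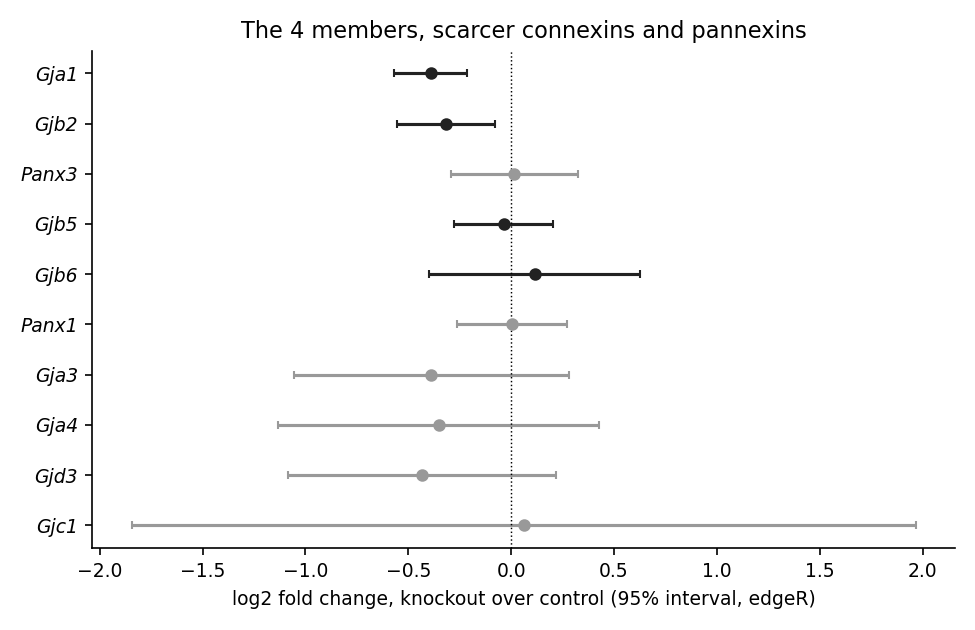
Log2 fold change of knockout over control (horizontal axis) with its 95% interval from edgeR for the 4 members, in black, with 4 scarcer connexins and 2 pannexins in grey, ordered by mean level from the highest at the top. Only the intervals of Gja1 (−0.57 to −0.21) and Gjb2 (−0.56 to −0.08) leave out 0, before adjustment over the genes tested.

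Genes whose proteins anchor connexins, phosphorylate Cx43 or mark it for removal gave no call in edgeR. Of 12 anchoring and trafficking genes, 0 passed and 0 had an unadjusted p under 0.05, with a median log2 change of −0.05. Tjp1, which encodes the ZO-1 scaffold that binds the tail of Cx43 and was named after its values were seen, ranged over 97.7 to 103.9 CPM among knockouts and 107 to 111 CPM among controls. Its groups did not overlap, and its change was −0.11 (SE 0.05, edgeR adjusted p 0.314). Ranges did not overlap for 2 of the 12, Tjp1 and Ezr (both lower in the knockout), against 25.6% of all genes tested. Cdh1 (E-cadherin) and Ctnnb1 (β-catenin), the most abundant of the list, had log2 differences of 0.076 and 0.030. Of 10 kinase genes, 0 passed and 1 had an unadjusted p under 0.05, against 19% of all genes. This was Prkca (log2 change 0.51, edgeR adjusted p 0.261), named after its values were seen. Akt1, among the 2 most abundant, had a log2 difference of −0.05 (edgeR adjusted p 0.708). DESeq2 called 0 genes in either list.

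Of 7 genes for ubiquitination and removal, 0 passed in edgeR and 1 had an unadjusted p under 0.05, against 19% of all genes. The median log2 change was −0.10. Nedd4, a ubiquitin ligase known to act on Cx43, had knockout levels of 644 to 689 CPM, control levels of 599.9 to 640.4 CPM and a log2 difference of 0.11 (SE 0.06, adjusted p 0.351 from edgeR). Its ranges did not overlap, as was so for 3 of the 7 genes, against 25.6% of all genes tested. Of these 3, Nedd4 was higher and Smurf2 (log2 change −0.10) and Wwp1 were lower in the knockout. A part of any of them in the level of Gja1 was not tested. Eps15, an endocytic adaptor gene, had a log2 difference of −0.06 (edgeR adjusted p 0.609). The gene with the unadjusted p under 0.05 was Wwp1, a related ligase, named after its values were seen. Its levels were 73.5, 78.7 and 75.1 CPM in the knockout (DE679, DE685, DE688) and 88.2, 94.4 and 100.3 CPM in the control (DE680, DE684, DE689). Its change was −0.32 (SE 0.07, edgeR adjusted p 0.0662). It was the list's single call with DESeq2 (adjusted p 0.00786), which called 5.7% of all genes.

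Because Cx26 and Cx30 are known to be induced in wounded epidermis, wound-associated keratinocyte genes were read beside them. Of 10 such genes, 0 passed in edgeR and 4 had an unadjusted p under 0.05 (Krt17, S100a8 and S100a9 higher and Sprr1b lower), against 19% of all genes, with a median log2 change of 0.12. Krt17, a stress keratin, ranged from 1484 to 2039 CPM among knockouts and from 1039 to 1404 CPM among controls (log2 difference 0.52, SE 0.16, edgeR adjusted p 0.146). Krt6a, another stress keratin, overlapped, with a change of 0.074. The list's summed level was 2196 to 2891 CPM (knockout) and 1584 to 2281 CPM (control). DESeq2 called 2 of the 10, Krt17 higher and Sprr1b lower in the knockout, against 5.7% of all genes.

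Fibroblasts and several keratinocyte states are known to express Gja1, so markers of the cells in the samples are given beside it. Over all genes tested, 49.3% had a positive change and edgeR called 1.6%, 1.24% higher and 0.357% lower. The fibroblast list summed to 891 to 1011 CPM among knockouts and to 488 to 590 CPM among controls. Postn, which encodes periostin, made up most of these sums, with 762 to 874 CPM among knockouts and 408 to 543 CPM among controls. Of the 6 genes tested, 2 rose in edgeR, Dcn by 1.90 (adjusted p 0.00782) and Postn by 0.75 (adjusted p 0.0253). The list as a whole did not move one way, with 3 positive and 3 negative changes and a median of −0.17. The fibrillar collagen genes had negative log2 differences that did not pass in edgeR, −0.38 for Col1a1, −0.42 for Col1a2 and −0.54 for Col3a1 (adjusted p 0.489 to 0.663). They were at most 14.1 CPM, each highest in the control library DE684, and Pdgfra differed by 0.035. Hair follicle markers summed to 2619 to 2984 CPM for knockouts and to 1963 to 2511 CPM for controls. Krt79 made up most of these sums, with 2086 to 2326 CPM among knockouts and 1603 to 2098 CPM among controls. Its ranges overlapped (edgeR adjusted p 0.270). Of 14 tested, 9 changes were positive and 5 negative, from −0.57 (Krt73) to −0.03 (Tbx1), with a median of 0.11. In edgeR 1 gene rose, Nfatc1 by 0.95 (adjusted p 0.00771). An unadjusted p under 0.05 was found for 5, against 19% of all genes: Nfatc1, Lgr5, Lgr6, Lhx2 and Sox9, all higher in the knockout. DESeq2 called the same 5, against 5.7% of all genes. Differentiated keratinocyte markers summed to 22073 to 29337 CPM (knockout) and 24914 to 39534 CPM (control). Of these 14 genes, 12 had a negative change, and the single call was Krt77, which rose by 1.598 (edgeR adjusted p 0.0396). An unadjusted p under 0.05 was found for 8 of the 14, against 19% of all genes, and 7 of these 8 were lower in the knockout. DESeq2 called 4, against 5.7% of all genes, Krt77 higher and Calm4, Dsc1 and Krtdap lower. With the sex covariate, edgeR called Calm4 and Dsc1 lower and Krt77 higher, against 2.65% of all genes. In the basal list, 7 of 10 changes were positive and 0 passed in edgeR. Both an unadjusted p under 0.05 and a DESeq2 call were found for 3 (Krt15, Lamb3 and Trp63), against 19% and 5.7% of all genes. Dcn was called in every alternative. Postn was not called without DE679, DE685, DE688 or DE680, and Nfatc1 not in the 4 libraries with at most 3 Y-linked counts. Krt77 was not called with limma-voom, in those 4 libraries, or without any one library other than DE679.

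Melanocyte markers were positive in 8 of 8 (summed 87.8 to 128 against 61.0 to 88.3 CPM), and immune markers in 9 of 9 tested (58.3 to 137 against 30.2 to 115 CPM). Over all genes tested, 49.3% had a positive change. Neither list had a call in edgeR. An unadjusted p under 0.05 was found for 3 melanocyte genes (Dct, Pmel and Mitf) and 0 immune genes, against 19% of all genes. DESeq2 called 1 melanocyte gene, Pmel, against 5.7% of all genes. Of the immune list, Lyz2 was at 0 in at least 1 library. Endothelial markers were negative in 5 of 5 tested, at a summed 3.29 to 4.43 against 4.72 to 7.41 CPM. These levels are low, and the change of Tek was only −0.0034. In edgeR 0 passed, and 1 had an unadjusted p under 0.05, Cldn5, against 19% of all genes. Sebaceous gland markers overlapped in their sums, at 7244 to 8303 against 7431 to 8606 CPM, with 0 calls in edgeR. Of these 10 genes, 1 had an unadjusted p under 0.05, Mgst1, against 19% of all genes. Its log2 change was −0.32 (edgeR adjusted p 0.148), and DESeq2 called it (adjusted p 0.0339), against 5.7% of all genes. Skeletal muscle markers summed to at most 3.11 CPM. The part of these differences in the levels of Gja1 and Gjb2 was not tested.

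The genes most like each member across the 6 libraries were taken by Pearson correlation of log2(CPM + 1) among 9683 genes with a mean of at least 10 CPM. With 6 libraries and so many candidates, high values arise readily, so these are descriptions. Closest to Gja1 were U2surp (0.996), Lrp6 (0.994), a Wnt co-receptor gene, and Tmem45a2 (0.988). Closest to Gjb2 were Exoc6 (0.996), Plxna2 (0.992), a semaphorin receptor gene, and Palm3 (0.989). Gjb5 was most like Xpo1 (0.986), which encodes a nuclear export receptor, Srp14 (0.983) and Cpsf3 (0.977). The edgeR adjusted p of these 9 genes lay between 0.0753 and 0.939.

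Gjb6 was most like Hhip (0.993), Tnfrsf19 (0.991) and Fam129a (0.987). Hhip encodes a Hedgehog-binding antagonist and is a known Hedgehog target, and Tnfrsf19 encodes a receptor of the tumour necrosis factor family known from hair follicles. Hhip levels were 50.04 (DE679), 8.49 (DE685) and 77.6 CPM (DE688) for knockouts and 22.4 (DE680), 2.06 (DE684) and 114 CPM (DE689) for controls. Hhip, Tnfrsf19 and Fam129a were picked for likeness to Gjb6 in these libraries, which makes a shared library order likely. All 4 genes put the libraries in the same order, from DE684 through DE685, DE680, DE679 and DE688 to DE689, an order that interleaves the genotypes. Both libraries with Y-linked transcripts stand at its low end. Tnfrsf19 ran from 85.1 to 135 CPM and Fam129a from 31.9 to 55.6 CPM, and none of the 3 passed by genotype in edgeR (adjusted p 0.761 and 0.892, and 0.996 for Hhip).

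**Figure D5:**
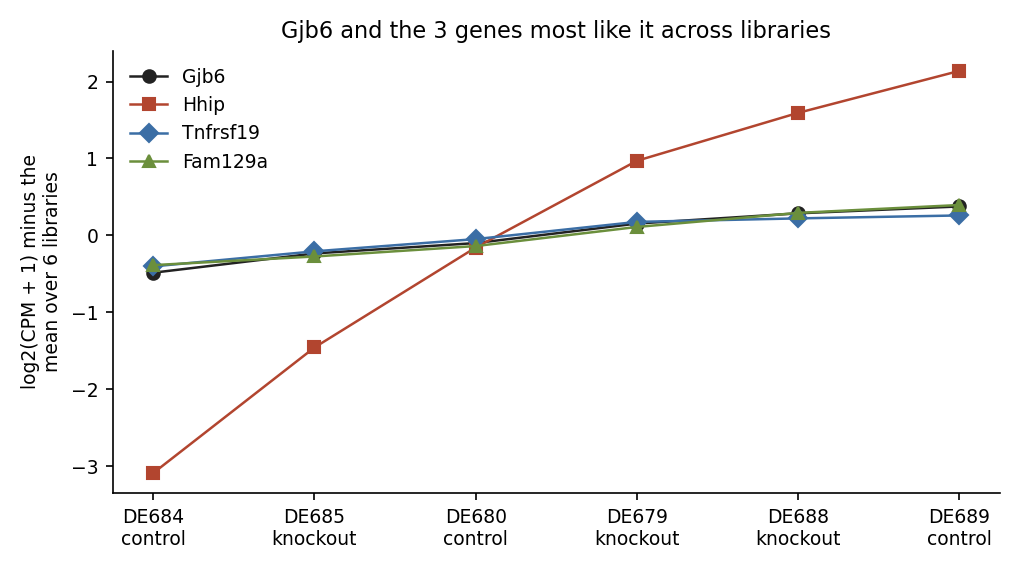
Log2(CPM + 1) of Gjb6, Hhip, Tnfrsf19 and Fam129a minus each gene's mean over the 6 libraries (vertical axis), with libraries ordered by Gjb6. Hhip, Tnfrsf19 and Fam129a were picked for likeness to Gjb6, and the 4 lines rise in the same order. Hhip spans a far wider range (2.06 to 114 CPM) than Gjb6 (35.5 to 65.4 CPM), and the genotypes interleave along the axis.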

How the data were processed

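Polyadenylated RNA of 6 tail keratinocyte samples (3 knockout, 3 control) was made into stranded libraries, per the labels' protocols. The submitters' processing notes name bcl2fastq 2.20, cutadapt 1.18, STAR 2.7.0f, Partek and mm10, without roles; strand use in counting and the annotation are not given in the sources used here. The authors deposited estimated counts per gene, of which 53.0% to 57.7% per library were whole. In the authors' normalized signal, each value is the estimated count times a library constant plus 0.001, from the values. Duplicates were marked, per the file headers.

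Estimated counts were rounded, filtered with filterByExpr and scaled with TMM (factors 0.975 to 1.03). All genes were fitted with edgeR 4.0.16 (glmQLFit, glmQLFTest), genotype being the only term, in R 4.3.3, and p-values were adjusted over 15422 genes with a threshold of 0.05. The test had been laid out for counts and was kept for rounded estimated counts. Each standard error was derived from the edgeR F statistic, and 95% intervals from the moderated degrees of freedom. The fit was tested on simulated data. Pair ratios used an exact permutation test. Levels per length used the basic-set transcript with the longest coding sequence in GENCODE M21. The file's gene ends lie 1 base past GENCODE's, so GENCODE ends are printed. Libraries of a genotype were not duplicates of one another (chi-square over its degrees of freedom, 11.2 to 36.3). Alternatives used limma 3.58.1 and DESeq2 1.42.0; sex was read from Xist and Y-linked counts. Intervals cover the spread between libraries, and a detection limit of 3 counts (0.117 to 0.173 CPM) counting error only.

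Members and lists were chosen with earlier results of these data known. Named were the 4 members, all connexins and pannexins, from the other lists up to 3 genes past the threshold or else the 2 most abundant (printed where they bear on a result), and the 3 genes most like each member. Genes named outside that rule were named after their values were seen. They were picked for an unadjusted p, a call by an alternative, their level or change in a list, or as a defining marker. Some genes of these lists, and the results that need them, are not reported here.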

Additional observations from a re-analysis of the deposited data

How the results depend on the processing

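The Gja1 change kept its sign in 15 of 15 alternatives but crossed the threshold in 4: −0.39 with DESeq2, limma-voom and the sex covariate, and −0.40 with limma on the authors' normalized values. Each of these 4 settings gave 1 connexin past the threshold, Gja1, against 0 in the main test. Genes past the threshold over all tested numbered 247, against 879 with DESeq2 and 409 with the sex covariate. They numbered 87 in the 4 libraries with Xist alone (an alternative chosen after seeing the data) and 69 to 121 with 1 library left out. Settings with fewer libraries also differed in the number of genes tested, and the cause of the lower and higher numbers was not tested. DESeq2 called 1 gene of ubiquitination and removal (Wwp1) and 2 wound-associated genes, Krt17 higher and Sprr1b lower in the knockout. Sprr1b, again lower, was the 1 wound-associated gene called with limma-voom, with the sex covariate and with the Xist libraries alone. Leaving out 1 library gave 0 to 1 such call, Sprr1b lower without DE685 and S100a8 higher without DE689. With 1 library left out, Gja1 ranged from −0.44 to −0.33, Gjb2 from −0.38 to −0.23, Gjb5 from −0.13 to 0.025 and Gjb6 from −0.07 to 0.38. Gjb5 reversed to 0.011 without DE688, 0.0041 without DE680, 0.025 without DE684 and 0.044 in the Xist libraries alone. Gjb6 reversed to −0.00074 without DE688 and −0.074 without DE684. Of the pair ratios, Gja1/Gjb2 (−0.14 to 0.0069) and Gjb5/Gjb6 (−0.51 to 0.10) reversed, both without DE684. No paired analysis was possible because the columns carry no replicate numbers.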
